A study of Schizosaccharomyces pombe with 12 samples.

Results

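RNA levels were compared between fission yeast (Schizosaccharomyces pombe) lacking med20 and wild-type cells, over all 6888 genes of the table that the authors made for this contrast. Genes were grouped by the RNA type and the product that the table gives them, and 6888 is also the number in the whole series. The med20Δ strain is labelled h+ leu1-32 ura4-D18 med20:NAT, and the wild type is labelled h- L972, so the strains also differ by label in mating type and in leu1 and ura4. Each strain had 3 of the 12 libraries of the series. Cells grew in rich liquid medium (YEA) at 30 degrees to logarithmic phase, and polyadenylated RNA was selected with oligo(dT). Nothing in the labels says whether the libraries came from separate cultures, so the p-values speak of the scatter among these libraries only, and that scatter may be technical. The remaining strains of the series, are used below as a second background. The double mutant is labelled med20:natMX and rrp6∆::KanMx6 with leu1-32 and ura4-D18. The rrp6Δ strain is labelled h- and rrp6∆::KanMx6, with Leu1-32, His2, the marker Ura4 DS/E and a ura+ insertion at a centromeric repeat, Otr1R(Sph1)::ura+.

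Mediator is the large complex that links DNA-bound transcription factors to RNA polymerase II at promoters. Med20 sits in its head module, where it pairs with Med18 on a stalk formed by Med8, and in fission yeast these subunits are dispensable for growth. Earlier work in fission yeast tied this part of the head to the genes that separate daughter cells after division.

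The deleted gene checked the labels first. The med20 gene had 5.36, 2.12 and 5.35 normalised counts in the med20Δ libraries, against 604, 583 and 626 in the wild-type libraries, on chromosome I. Its log2 fold change was -7.14 in the authors' deposited table (adjusted p = 8.85e-46). Its direct neighbours arc5 and ilv3 were not called. The ura4 gene went against the label of the med20Δ strain, with 2117, 2318 and 1785 in med20Δ, against 1733, 2319 and 1782 in wild type, and its neighbours tam14 and new25 were also at similar levels in both strains. The double mutant carries the same ura4-D18 label, and ura4 had 1.85, 5.24 and 2.66 in the double mutant, against 1369, 1188 and 1374 in rrp6Δ. The label h+ stands for P cells, yet mat1-Mc, the master gene of M cells, had 553, 397 and 443 in med20Δ, against 302, 296 and 422 in wild type, and none of 10 M-cell genes and 3 P-cell genes measured was called, by the deposited test or by limma (3 and 0 had an unadjusted p under 0.05). With the term for 2 libraries described next, limma called 2 of 8 M-cell genes lower (25%, where 7.78% of all genes were). In that limma fit the pheromone gene mfm2 changed by -1.36 ± 0.31 (standard error, adjusted p = 0.0037). The other was mam4, whose methyltransferase modifies the prenylated cysteine of the pheromone, at -0.82 ± 0.19 (standard error, limma adjusted p = 0.00495). Copies at the silent mating-type locus share reads with mat1, and the summed level of the M-cell genes was 3461 in med20Δ and 3529 in wild type. Any effect of the other alleles in the labels cannot be told apart from that of the med20 deletion.

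The deposited values are means per strain, and the whole counts of the 3 libraries behind each mean were recovered from their digits, for 6713 genes in med20Δ and 6770 in wild type. Library totals over the 6710 genes recovered in both ran from 8231747 to 9450693 counts in med20Δ and from 8203856 to 10269997 in wild type. The first principal component of the libraries (40.9% of the variance) separated the strains. The second (35.7%) set apart 1 library of each strain, numbered 1 here, in which 5.8S rRNA summed to 341 normalised counts in med20Δ and 520 in wild type, against 5876 to 6252 in the other med20Δ libraries and 6279 to 7698 in the other wild-type libraries. Results are therefore also given from a fit with a term for these libraries, a choice made after seeing the data. What sets these libraries apart, and its part in the results, was not tested.

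Between med20Δ and wild type, 163 of 6888 genes (2.37%) were called in the authors' deposited table at an adjusted p under 0.05. Of these, 77 were higher (1.12%) and 86 lower (1.25%). By RNA type these were 41 protein-coding genes higher and 53 lower of 5118, and 34 non-coding RNAs higher and 33 lower of 1501. One tRNA gene and 1 small nucleolar RNA gene were higher, and no rRNA or snRNA gene was called. Of the called genes, 24 were more than 4-fold higher and 27 more than 4-fold lower, and the smallest change among them was 0.98 on the log2 scale. All 75 higher and 85 lower called genes with every library recovered had no overlap between strains, where 10.2% of all genes tested lay wholly above and 12.8% wholly below wild type. The called protein-coding genes had a median mean of 954 normalised counts and the called non-coding RNAs 70.0.

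**Figure D1:**
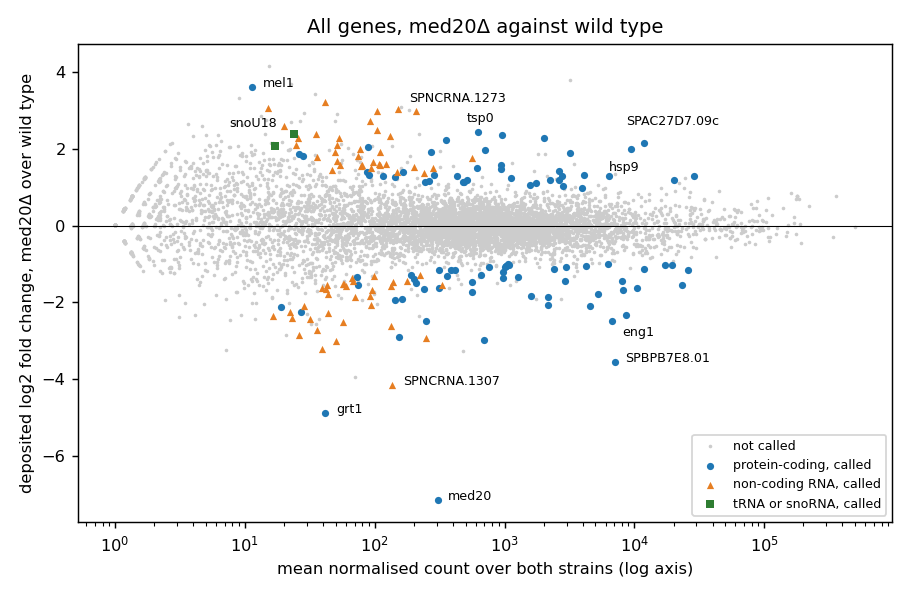
Each point is 1 of 6888 genes, with its mean normalised count over both strains on a log axis and its deposited log2 fold change (med20Δ over wild type) on the other axis, and coloured points are genes with an adjusted p under 0.05. The med20 gene lies lowest at -7.14, grt1 is next at -4.88, and called non-coding RNAs lie mostly left of called protein-coding genes.

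The recovered libraries were also tested with limma, on log2(normalised count + 1), over the 5887 genes that averaged 10 or more. It called 156 genes (2.65%), 73 of them higher (1.24%) and 83 lower (1.41%), and 60 of the higher and 70 of the lower genes were called by both tests. Scaling by total recovered counts gave 93 higher and 68 lower, a split that leans the other way. These totals leave out the genes whose counts were not recovered, all of them with a mean above 10000 in a strain. The counts also depended on single libraries. Without med20Δ library 1, 2 or 3, limma called 11, 10 or 28 genes higher and 21, 19 or 39 lower. Without wild-type library 2 or 3 it called 28 or 32 higher and 38 or 28 lower, and without wild-type library 1 it called 109 higher and 103 lower. With the term for the libraries low in 5.8S rRNA, limma called 408 genes higher (6.93%) and 458 lower (7.78%), among them all 160 genes of the deposited calls that it could test.

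Among the pathway lists, the genes that separate daughter cells had the most members that fell. Of 18 genes for cell separation and septins, 6 were lower (33.3%, where 1.25% of all genes were) and none higher. The median log2 fold change was -0.51 over the list and 0.00 over all genes. The 6 were eng1, agn1, adg1, adg2, adg3 and cfh4. The endoglucanase gene eng1, whose product cuts the primary septum, had 1382, 1734 and 2964 normalised counts in the med20Δ libraries, against 9262, 13082 and 11662 in the wild-type libraries. Its log2 fold change was -2.48 in the authors' deposited table (adjusted p = 1.23e-11). The strains did not overlap.

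The adg1 gene, of unknown function, had 1138, 1672 and 2376 normalised counts in the med20Δ libraries, against 7425, 6725 and 7999 in the wild-type libraries. The alpha-glucanase gene agn1, whose product opens the cell wall around the septum, had 734, 934 and 1124 normalised counts in the med20Δ libraries, against 3967, 3075 and 3015 in the wild-type libraries. The authors' deposited table gave log2 fold changes of -2.09 for adg1 (adjusted p 2.04e-08) and -1.85 for agn1 (adjusted p 1.77e-06), and neither gene overlapped between strains. The adg2 gene had 2561, 4254 and 6079.8 normalised counts in the med20Δ libraries, against 9962, 12348 and 12876 in the wild-type libraries. The chitin synthase regulator gene cfh4 had 1231, 1645 and 1896 normalised counts in the med20Δ libraries, against 4329, 3708 and 4839 in the wild-type libraries. The log2 fold change of adg2 was -1.45 in the authors' deposited table (adjusted p = 0.000397). That of cfh4 was -1.43 in the authors' deposited table, with an adjusted p of 0.000704. The predicted beta-glucosidase gene adg3 changed least of the 6, with 1417, 3019 and 3885 normalised counts in the med20Δ libraries, against 4808, 6157 and 6206 in the wild-type libraries. Its log2 fold change was -1.05 in the authors' deposited table (adjusted p = 0.0269), but the limma test did not call it (adjusted p = 0.107).

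The anillin-like gene mid2, which organises septins, had 2936, 1893 and 1842 in med20Δ, against 7323, 3335 and 4404 in wild type, not called in the authors' deposited table (log2 fold change -1.18, adjusted p = 0.332). Library 1 was the highest of its strain in each. In the fit with a term for the libraries low in 5.8S rRNA, mid2 changed by -1.13 ± 0.18 (standard error, adjusted p = 9.57e-05) and the glucanase gene exg1 by -0.91 ± 0.18 (standard error, adjusted p = 0.000918). That fit, which limma made across all genes, called 9 of the 17 list genes tested lower (52.9%, where 7.78% of all genes were) and 1, the septin gene spn4, higher (5.88%, where 6.93% were). The glucan synthase genes bgs1 and bgs4 and the septin genes spn1, spn2 and spn3, which build rather than cut the septum or mark its place, had log2 fold changes between -0.15 and 0.24 in the authors' deposited table and none was called.

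**Figure D2:**
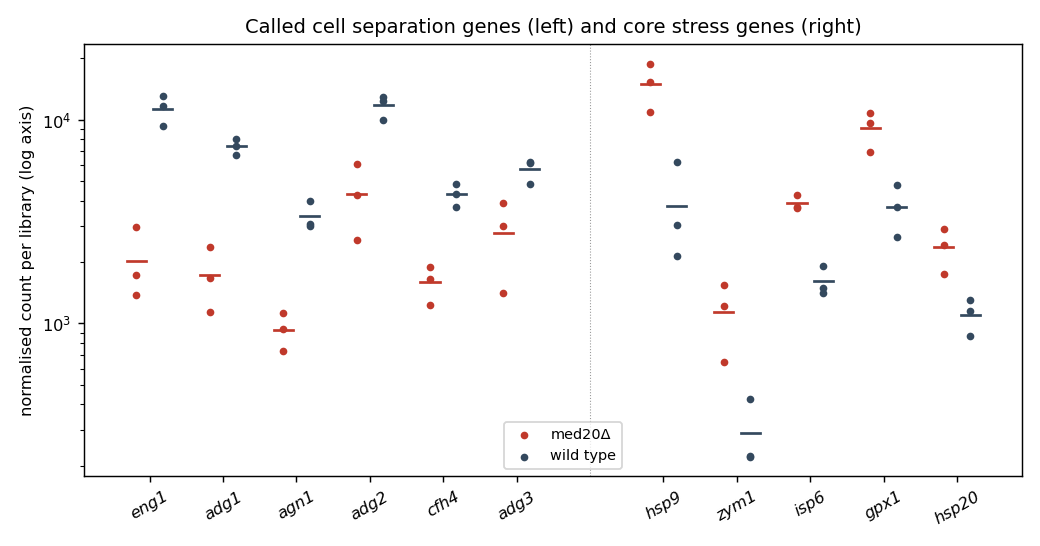
Points are the 3 recovered libraries of med20Δ and of wild type for each gene, short lines are their means, and the axis of normalised counts is logarithmic. All 6 called cell separation genes lie lower in med20Δ without overlap, from eng1 at -2.48 to adg3 at -1.05 on the log2 scale, and all 5 called core stress genes lie higher.

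Short promoter motifs were searched on both strands of the 500 bases before the start codon of 5101 protein-coding genes, in the RefSeq assembly ASM294v3. TGACGT, the core of the site of the stress factor Atf1, occurred in 8 of 41 promoters of higher genes (19.5%), 4 of 53 of lower genes (7.55%) and 7.98% of all. The forkhead site GTAAACA occurred in 24.4% of higher, 24.5% of lower and 23.3% of all. The TATA box letters TATAAA occurred in 75.6% of higher, 77.4% of lower and 70.3% of all. A match of any of these motifs is a description of letters, not a binding site, and the differences were not tested.

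Some genes for cell adhesion and for uptake were also lower. Of 15 flocculation genes, which make cells stick together, 3 were lower (20%, where 1.25% of all genes were) and none higher. The limma fit with the term called 3 of 14 lower (21.4%, where 7.78% of all genes were) and 1 higher (7.14%, where 6.93% were). The DIPSY glycoprotein gene pfl7 had 64.3, 70.9 and 91.99 normalised counts in the med20Δ libraries, against 582, 319 and 357 in the wild-type libraries. Its family member pfl3 had 669, 746 and 717 normalised counts in the med20Δ libraries, against 2069.8, 3334 and 2119 in the wild-type libraries. The gene cbf12, for a factor that promotes adhesion, had 249, 196 and 332 normalised counts in the med20Δ libraries, against 1089, 717 and 753 in the wild-type libraries. The authors' deposited table gave log2 fold changes of -2.47 for pfl7, -1.82 for pfl3 and -1.72 for cbf12, with adjusted p of 0.000275, 0.000377 and 6.93e-05 in that order, and none of the 3 overlapped between strains. Of 61 products named for the cell surface or cell wall, 4 were lower (6.56%, where 1.25% of all genes were) and none higher. But 34 of the 61 lay above 0 on the log2 scale, where the median difference was 0.10. The limma fit with the term called 7 of 56 higher (12.5%) and 8 lower (14.3%), where 6.93% and 7.78% of all genes were.

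Of 193 genes for transporters and permeases, 12 were lower (6.22%, where 1.25% of all genes were) and none higher. The called transporter genes SPBPB10D8.04c, SPBPB10D8.05c and SPBPB10D8.06c are near-identical copies that can share reads, so they are not independent of each other. The limma test called 6 of 191 lower and none higher, and the fit with the term 36 lower (18.8%) and 11 higher (5.76%), where 7.78% and 6.93% of all genes were. The predicted cysteine transporter gene SPBPB10D8.01 had 181, 88.9 and 198 normalised counts in the med20Δ libraries, against 1246, 1504 and 911 in the wild-type libraries. The phosphate transporter gene pho84 had 2182, 6193 and 6999.6 normalised counts in the med20Δ libraries, against 10721, 18354 and 18509.5 in the wild-type libraries, and the related gene pho841 had 1633, 1748 and 2339 in med20Δ, against 3667, 3795 and 4605 in wild type. The proline permease gene put4 had 95.6, 159.8 and 209 normalised counts in the med20Δ libraries, against 466, 424 and 531 in the wild-type libraries. Their log2 fold changes in the authors' deposited table were -2.97 for SPBPB10D8.01, -1.63 for pho84, -1.08 for pho841 and -1.61 for put4. The amino acid transporter gene dip5 and the hexose transporter gene ght7 also fell, at low levels (12.5, 6.35 and 9.63 in med20Δ, against 47.4, 35.5 and 51.7 in wild type for dip5).

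Among the remaining lower genes, the orphan SPBPB7E8.01 stood out by its level, with 773, 961 and 1582 normalised counts in the med20Δ libraries, against 10844, 14476 and 13638 in the wild-type libraries. Its log2 fold change of -3.55 in the authors' deposited table (adjusted p = 1.72e-22) was the largest fall after med20 among called coding genes with a mean of at least 50. The gene for the cellulose-binding domain protein cbm1 had 1307, 2781 and 4518 normalised counts in the med20Δ libraries, against 12113, 16495 and 14192 in the wild-type libraries. The peroxisomal import receptor gene pex7 had 2859.8, 1829 and 2399 normalised counts in the med20Δ libraries, against 9059.8, 7143 and 8234 in the wild-type libraries. The malic enzyme gene mae2 had 14724, 10141 and 10887 normalised counts in the med20Δ libraries, against 36297, 27334 and 41225 in the wild-type libraries, and the malate carrier gene mae1 had 7979, 5861 and 8215 in med20Δ, against 21364, 13859 and 13315 in wild type. Log2 fold changes in the authors' deposited table were -2.31 for cbm1, -1.79 for pex7, -1.55 for mae2 and -1.14 for mae1. The predicted transcription factor gene grt1 had 1.79, 2.12 and 4.28 in med20Δ, against 101, 104 and 37.4 in wild type, and fell by 4.88 on the log2 scale in the authors' deposited table.

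More lower than higher genes lay near the ends of chromosomes I and II, a difference that was not tested. Of the 6769 genes placed in ASM294v3, 162 lay within 100 kb of an end of chromosome I or II, of which 16 were lower (9.88%) and 3 higher (1.85%). At the ends of chromosome III 1 of 56 and 2 of 51 genes were lower. Outside the ends of I and II, 69 of 6607 were lower (1.04%) and 70 higher (1.06%). At the left end of chromosome II alone, 9 of 40 genes were lower (22.5%), with a median log2 fold change of -0.94. Among 158 called genes placed, 16 had a called direct neighbour, making 10 such pairs among 6766 direct pairs of all genes, of which 8 were lower together and 1 higher together.

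A run on chromosome II held 5 of the 10 pairs. It comprised the cysteine transporter gene SPBPB10D8.01, the arylsulfatase gene SPBPB10D8.02c, the antisense RNA SPNCRNA.1307 and the transporter genes SPBPB10D8.04c, SPBPB10D8.05c and SPBPB10D8.06c. SPBPB10D8.02c had 46.4, 37.04 and 26.7 normalised counts in the med20Δ libraries, against 254, 297 and 263 in the wild-type libraries. SPNCRNA.1307, which overlaps SPBPB10D8.02c on the opposite strand, had 6.25, 13.8 and 23.5 normalised counts in the med20Δ libraries, against 328, 238 and 204 in the wild-type libraries. The 3 last genes of the run are near-identical copies that can share reads, so the fold of a single copy is uncertain. A second pair was pfl7 with the non-coding RNA SPNCRNA.293, which had 5.36, 5.29 and 8.56 in med20Δ, against 23.7, 70.9 and 44.03 in wild type.

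Among the lists, core stress had the most genes that rose. Of 25 core stress genes, 5 were higher (20%, where 1.12% of all genes were) and none lower. The median log2 fold change was 0.63 over the list. The small heat shock gene hsp9 had 18819, 15307 and 10892 normalised counts in the med20Δ libraries, against 3049, 2132 and 6174 in the wild-type libraries. The metallothionein gene zym1, whose product binds metal ions, had 1537, 1217 and 646 normalised counts in the med20Δ libraries, against 222, 223 and 424 in the wild-type libraries. The vacuolar protease gene isp6 had 4267, 3723 and 3703 normalised counts in the med20Δ libraries, against 1915, 1498 and 1406 in the wild-type libraries. The authors' deposited table gave log2 fold changes of 1.99 for hsp9, 1.97 for zym1 and 1.28 for isp6, with adjusted p of 0.000202, 0.0237 and 0.00465 in that order.

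The glutathione peroxidase gene gpx1 had 10767, 9624 and 6912 normalised counts in the med20Δ libraries, against 3705, 2646 and 4769 in the wild-type libraries, and the heat shock gene hsp20 had 2905, 2429 and 1745 in med20Δ, against 1296, 1155 and 865 in wild type. Their log2 fold changes in the authors' deposited table were 1.30 for gpx1 and 1.09 for hsp20. None of the 5 promoters held TGACGT in the 500 bases searched, while 7 of the 25 list genes did. The trehalose synthesis gene tps1 was just short of the threshold, with a log2 fold change of 0.98 in the authors' deposited table (adjusted p = 0.0526). With the term for the libraries low in 5.8S rRNA, limma called 12 of the 25 genes higher (48.0%, where 6.93% of all genes were), adding among others hsp16 at 1.47 ± 0.24 (standard error, adjusted p = 0.000185) and tps1 at 1.01 ± 0.18 (standard error, adjusted p = 0.000489). The phosphatase gene pyp2, a brake on the stress kinase, was lower in that fit, at -0.997 ± 0.30 (standard error, adjusted p = 0.0244). Of 15 genes on the chaperone list none was called in the deposited table and 2 had an unadjusted p under 0.05. On that list the name ssp1 was matched to SPCC297.03, a kinase gene. Limma called none of the 10 list genes it tested. With the term limma called 2 of these 10 higher, hsp10 at 0.81 ± 0.19 (standard error, adjusted p = 0.00475) and hsp78 at 0.89 ± 0.19 (standard error, adjusted p = 0.00252).

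Outside the lists, the called coding gene that rose most at a mean of at least 50 was tsp0. The gene for the TspO homologue tsp0 had 1350.4, 914 and 884 normalised counts in the med20Δ libraries, against 258, 118 and 212 in the wild-type libraries. The fungal protein gene SPAC11D3.01c had 1935, 1863 and 1032 normalised counts in the med20Δ libraries, against 357, 307 and 277 in the wild-type libraries. The proteinase inhibitor gene pbi2 had 3051, 4329 and 2564 normalised counts in the med20Δ libraries, against 516, 555 and 972 in the wild-type libraries. The authors' deposited table gave log2 fold changes of 2.42 for tsp0, 2.36 for SPAC11D3.01c and 2.28 for pbi2, and none overlapped between strains. The abundant But2 family gene SPAC27D7.09c had 21154, 15479 and 21827 normalised counts in the med20Δ libraries, against 4538, 3197 and 5492 in the wild-type libraries, a log2 fold change of 2.14 in the authors' deposited table (adjusted p = 7.69e-09).

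Several of the higher genes came in functional pairs. The catechol methyltransferase genes cmt1 and cmt2 both rose, cmt1 with 1625, 1556 and 1061 in med20Δ, against 385, 402 and 647 in wild type and cmt2 with 158, 179.9 and 89.8 in med20Δ, against 25.6, 31.6 and 47.3 in wild type. The uracil-regulated genes urg1, for a GTP cyclohydrolase, and urg2, for a uracil phosphoribosyltransferase, both rose too, urg1 with 327, 422 and 537 in med20Δ, against 106, 91.1 and 144 in wild type and urg2 with 616, 1069 and 1034 in med20Δ, against 202, 287 and 471 in wild type. Log2 fold changes in the authors' deposited table were 1.56 for cmt1, 2.03 for cmt2, 1.91 for urg1 and 1.503 for urg2. The other 10 genes of pyrimidine and leucine synthesis measured were not called. Among these was urg3, also named as uracil-regulated, which averaged 1391 in med20Δ and 1370 in wild type. Its log2 fold change was 0.02 in the authors' deposited table. Among carbon genes, the pyruvate decarboxylase gene pdc201 had 202, 226 and 287 in med20Δ, against 111, 82.5 and 77.1 in wild type. It rose with the transaldolase gene tal1, while mae1 and mae2 fell. So 2 of 24 genes of that list were higher and 2 lower (8.33% each, where 1.12% and 1.25% of all genes were).

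The gene sua7, for the general factor TFIIB that positions RNA polymerase II, was higher, with 621, 691 and 529 normalised counts in the med20Δ libraries, against 242, 272 and 236 in the wild-type libraries. Its log2 fold change of 1.30 in the authors' deposited table (adjusted p = 0.00708) was singled out after its value was seen. The alpha-galactosidase gene mel1 had a larger fold at a low level, with 22.3, 9.52 and 31.02 in med20Δ, against 0.95, 0.96 and 3.30 in wild type. The remaining higher coding genes changed by 0.98 to 2.23 on the log2 scale in the authors' deposited table.

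Some lists had no or few calls in the deposited table and more with the added term. Of 17 iron and copper genes none was called and 1 had an unadjusted p under 0.05, and limma called none, while the fit with a term for the libraries low in 5.8S rRNA called 7 higher (41.2%, where 6.93% of all genes were) and none lower. The iron permease gene fip1 had 5539, 2084 and 2013 normalised counts in the med20Δ libraries, against 1942, 447 and 262 in the wild-type libraries. The ferroxidase gene fio1, its partner, had 4028, 2477 and 1994 normalised counts in the med20Δ libraries, against 1623, 488 and 234 in the wild-type libraries. In each strain library 1 was highest, and within each pair of like libraries med20Δ was above wild type. In that limma fit fip1 changed by 2.22 ± 0.22 (standard error, adjusted p = 2.52e-07) and fio1 by 2.24 ± 0.26 (standard error, adjusted p = 1.97e-06). The siderophore transporter gene str3 had 775, 362 and 283 in med20Δ, against 919.7, 59.4 and 15.4 in wild type, where the order of the strains in library 1 was the opposite.

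Of 8 phosphate genes, pho84 was lower in the deposited table but not called by limma (adjusted p = 0.0552), which called none of the list, and the fit with the term called 4 lower and none higher, including the acid phosphatase gene pho1 at -0.94 ± 0.18 (standard error, adjusted p = 0.00113). Of 87 ribosome biogenesis genes, none was called in the deposited table or by limma, and 12 had an unadjusted p under 0.05. There 78 had a negative log2 fold change, where 2743 of all 5118 coding genes did, and the median over the 87 was -0.31. The limma fit with the term called 18 of them lower (20.7%, where 7.78% of all genes were) and none higher. Of 199 cytosolic ribosomal protein genes none was called, 2 had an unadjusted p under 0.05, limma called 1 of 109 lower and with the term 5 lower and 1 higher, and the median was -0.02.

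Non-coding RNAs changed in both directions, 2.27% of them higher and 2.20% lower, beside 0.80% and 1.04% of coding genes, a difference that was not tested. Of 694 antisense RNAs, 25 were higher (3.602%) and 21 lower (3.03%), and of 442 intergenic RNAs, 4 were higher (0.90%) and 9 lower (2.04%). The antisense RNA SPNCRNA.1273, opposite ski3 (a helper of the cytoplasmic exosome), rose most of the called ones averaging 50 or more, with 278, 356 and 178 normalised counts in the med20Δ libraries, against 27.5, 35.5 and 36.3 in the wild-type libraries. SPNCRNA.1109, opposite mug135, had 205, 569 and 325 normalised counts in the med20Δ libraries, against 54.05, 33.6 and 52.8 in the wild-type libraries. SPNCRNA.719, opposite SPAC22A12.14c, had 183, 287 and 87.7 in med20Δ, against 36.03, 18.2 and 16.5 in wild type. Log2 fold changes in the authors' deposited table were 3.03 for SPNCRNA.1273, 2.97 for SPNCRNA.1109 and 2.98 for SPNCRNA.719.

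The antisense RNA SPNCRNA.1471, opposite pof9, fell, with 65.2, 28.6 and 80.2 normalised counts in the med20Δ libraries, against 428, 448 and 449 in the wild-type libraries. The intergenic RNA SPNCRNA.1278 had 41.1, 27.5 and 44.9 normalised counts in the med20Δ libraries, against 284, 203 and 205 in the wild-type libraries. SPNCRNA.1397 had 16.97, 17.99 and 16.04 in med20Δ, against 85.3, 119 and 88.1 in wild type. Log2 fold changes in the authors' deposited table were -2.93 for SPNCRNA.1471, -2.61 for SPNCRNA.1278 and -2.52 for SPNCRNA.1397. Among called non-coding RNAs averaging 50 or more, the other 5 of the 8 that rose most changed by 2.09 to 2.71 on the log2 scale in the authors' deposited table, and the other 4 of the 8 that fell most, SPNCRNA.1307 aside, by -3.01 to -1.84.

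Of 67 called non-coding RNAs, 62 were placed in ASM294v3 and 48 overlapped a coding gene on the opposite strand, making 61 pairs. In 3 of these pairs the coding gene was called, where 41 of all 5118 coding genes were called higher and 53 lower, and the median log2 fold change of the partners was -0.11. The called partners were SPBPB10D8.02c (lower with SPNCRNA.1307), SPAC22A12.14c (higher with SPNCRNA.719) and the thiamine gene thi201 (lower, opposite to SPNCRNA.1629). The sources used here do not give the strand setting of the authors' counting, so reads of overlapping partners cannot be told apart with certainty.

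Transcripts of the centromeres formed a group of their own, picked out after their values were seen. Fission yeast centromeres are flanked by repeats that are kept silent as heterochromatin. Of 18 non-coding RNAs named as centromeric, 2 were called higher, where 2.27% of all non-coding RNAs were, and none lower. A positive log2 fold change was found for 16 (2 of these at the lowest value in both strains). The median over all non-coding RNAs was 0.02, and over the 18 centromeric ones it was 1.46. Their summed level was 808, 451 and 309 normalised counts in the med20Δ libraries, against 86.3, 157 and 132 in the wild-type libraries. The sums did not overlap, and med20Δ was 9.37-fold higher within the libraries numbered 1 and 2.63-fold higher within the others.

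SPNCRNA.234 had 103, 55.03 and 66.3 normalised counts in the med20Δ libraries, against 5.69, 15.3 and 3.30 in the wild-type libraries. SPNCRNA.360 had 60.7, 33.9 and 26.7 normalised counts in the med20Δ libraries, against 6.64, 9.59 and 12.1 in the wild-type libraries. These were the called members, with log2 fold changes of 3.20 for SPNCRNA.234 (adjusted p 2.25e-05) and 2.10 for SPNCRNA.360 (adjusted p 0.045) in the authors' deposited table. SPNCRNA.372 had 157, 73.02 and 39.6 in med20Δ, against 7.59, 9.59 and 18.7 in wild type, and SPNCRNA.232 had 119, 41.3 and 28.9 in med20Δ, against 4.74, 8.63 and 4.40 in wild type. For 9 of the 18 every med20Δ library lay above every wild-type library, as for 193 of all 1501 non-coding RNAs. The limma test called 3 of the 10 members with a mean of at least 10 higher, where it called 1.24% of all genes. The fit with the term called 7 higher, where it called 6.93% of all genes. Members are copies of repeats that can share reads, so they are not independent of each other.

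Summed levels of several classes of small structured RNA, which oligo(dT) selection retains only in part, averaged higher in med20Δ, but few genes were called in the deposited table. The limma fit with the term called higher 14 of 37 rRNA genes tested (37.8%), 10 of 27 small nucleolar RNA genes (37.0%), 2 of 6 tRNA genes and 1 of 2 snRNA genes, where 6.93% of all genes were, and 1 small nucleolar RNA gene lower. The 37 rRNA genes were 34 copies of 5S and 3 of 5.8S rRNA, and such copies can share reads. Genes of 18S and 28S rRNA were not tested by limma. Their summed deposited means had ratios of 0.78 and 1.69. Levels of small structured RNAs depend on the amount of RNA and on how much of it passed the selection, which cannot be told apart here. Small nucleolar RNAs guide the modification of ribosomal RNA, and snoU18 is a box C/D member of this class that was called. The transfer RNA gene called, SPBTRNAASN.01, is 1 of 6 tRNA genes whose identifier names asparagine. Their gene sequences are shown because they are the only members of these classes that passed the deposited test, with box C (ATGATGA) and box D (CTGA) in capitals in snoU18 and the anticodon GTT in capitals in SPBTRNAASN.01.

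snoU18: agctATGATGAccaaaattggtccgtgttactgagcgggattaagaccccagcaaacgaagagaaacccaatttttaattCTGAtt
SPBTRNAASN.01: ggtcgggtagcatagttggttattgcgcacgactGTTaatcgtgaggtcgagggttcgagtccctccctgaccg

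In RefSeq's ASM294v3 they lie at II:2720648-2720733 (snoU18) and II:1597996-1598069 (SPBTRNAASN.01), both on the minus strand. The snoU18 gene had 37.5, 40.2 and 42.8 normalised counts in the med20Δ libraries, against 2.84, 11.5 and 8.81 in the wild-type libraries, a log2 fold change of 2.38 in the authors' deposited table (adjusted p = 0.0046). SPBTRNAASN.01 had 29.5, 25.4 and 27.8 normalised counts in the med20Δ libraries, against 3.79, 4.79 and 11.01 in the wild-type libraries, a log2 fold change of 2.08 in the authors' deposited table (adjusted p = 0.0456) that limma did not call (adjusted p = 0.0593). The genes SPBTRNAASN.02, SPBTRNAASN.03, SPCTRNAASN.05 and SPCTRNAASN.06 have the same 74 bases, and the sources used here do not say how reads were divided among such copies. Of these, SPCTRNAASN.05 averaged 16.1 in med20Δ and 5.73 in wild type in the authors' deposited table, and SPBTRNAASN.02 and SPCTRNAASN.06 were at the lowest value of the table in both strains.

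The 51 small nucleolar RNAs summed to 3119, 4256 and 2966 normalised counts in the med20Δ libraries, against 1943, 2309 and 2083 in the wild-type libraries. These sums did not overlap (ratio 1.63, exact two-sided permutation test, p = 0.1, the smallest that 3 against 3 allows), and the ratio was 1.61 within the libraries numbered 1 and 1.65 within the others. The 165 tRNA genes summed to 293, 777 and 448 in med20Δ, against 196, 255 and 328 in wild type. The 36 genes of 5S rRNA summed to 417, 2255 and 2063 in med20Δ, against 277, 754 and 811 in wild type. Both overlapped between strains, with exact two-sided permutation p = 0.2 for tRNA and p = 0.3 for 5S rRNA. Within the libraries numbered 1 the ratios were 1.49 for tRNA and 1.51 for 5S rRNA, and within the others 2.10 and 2.76. The 5.8S rRNA, which differed most between libraries of a strain, had a ratio of 0.86.

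**Figure D3:**
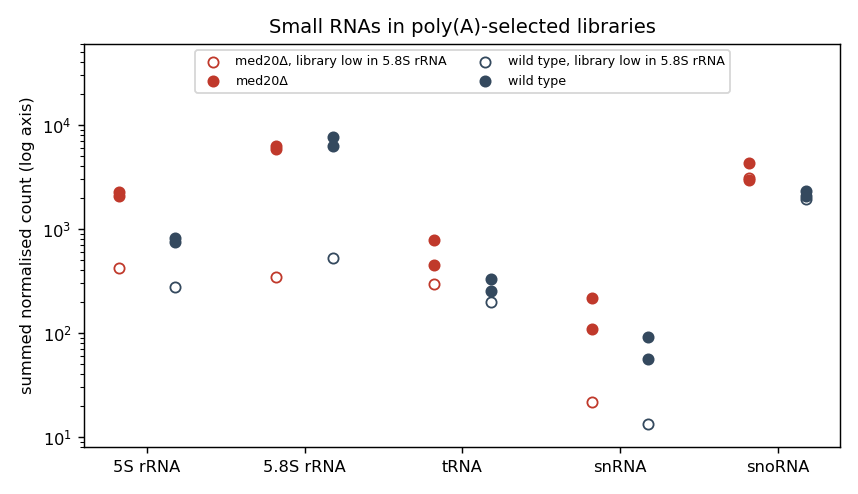
Points are the summed normalised counts of each class in the 3 libraries of med20Δ and of wild type, on a log axis, and open points are the library of each strain low in 5.8S rRNA. Small nucleolar RNA sums are higher in every med20Δ library (2966 to 4256) than in any wild-type library (1943 to 2309), while the tRNA and 5S rRNA sums overlap.

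In the lists of the machineries around Med20, no gene but med20 was called. Of the other 6 genes of the Mediator head none was called, nor were the 10 genes of the middle and tail modules and the 4 of the kinase module, none of them at an unadjusted p under 0.05 and none by limma. Log2 fold changes in the authors' deposited table were -0.14 for med18 and 0.10 for med8, whose products hold Med20 in place. None of 22 genes of the RNA polymerase III machinery and none of 18 genes of the nuclear exosome was called, with medians of -0.13 and -0.22, and no member of these 2 lists had an unadjusted p under 0.05 or was called by limma without the added term. With the term limma called 1 member of each, sfc4 of the RNA polymerase III list at 0.60 ± 0.19 (standard error, adjusted p = 0.0358) and mtr4 of the exosome list at -0.57 ± 0.18 (standard error, adjusted p = 0.0301). Of 13 retrotransposon genes none was called and none had an unadjusted p under 0.05, and all 13 had a positive log2 fold change with a median of 0.17. Copies of a retrotransposon can share reads, so these 13 may not be independent of each other. Of 11 meiotic transcripts that the factor Mmi1 removes, rec11 was higher, with 33.05, 42.3 and 47.1 in med20Δ, against 13.3, 9.59 and 11.01 in wild type.

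Most of the called genes had the same direction of change when med20 was deleted in cells that also lacked rrp6, in libraries that took no part in the calls. Values there are on a scale fitted over 12 libraries. Rrp6 is a nuclease of the nuclear exosome. The double mutant was set against rrp6Δ with limma, over 6064 genes, of which 270 were higher (4.45%) and 231 lower (3.81%). Of 77 genes called higher in med20Δ, 74 could be tested, 71 had a positive log2 fold change (47.7% of all genes did), 46 were called higher and none was called lower. Of 86 genes called lower, 83 could be tested, 77 had a negative log2 fold change (52.3% of all genes did), 49 were called lower and none was called higher.

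In that limma fit all 6 cell separation genes were lower, with log2 fold changes between -3.21 for adg1 and -1.49 for adg3 and a highest adjusted p of 0.0138, for adg3. The eng1 gene had 385, 619 and 1199 in the double mutant, against 4965, 5396 and 6233 in rrp6Δ, and its log2 fold change in that limma fit was -3.06 ± 0.36 (standard error, adjusted p = 0.000215). In the same limma fit SPNCRNA.1307 changed by -4.28 (adjusted p = 0.000646) and SPNCRNA.1273 by 4.58 (adjusted p = 4.48e-06) on the log2 scale. The metallothionein gene zym1 had 12058, 5597 and 7479 in the double mutant, against 591, 403 and 305 in rrp6Δ. All 9 centromeric RNAs tested had a positive log2 fold change, and limma called 2 of them. The ura+ insertion in the rrp6Δ strain lies at such a repeat, and its part in these values was not tested. By RNA type, the share called in the same direction among genes lower in med20Δ was 78.8% of 33 non-coding RNAs and 46.0% of 50 protein-coding genes. Among genes higher in med20Δ it was 58.8% of 34 non-coding RNAs and 65.8% of 38 protein-coding genes, the opposite order, and neither difference was tested.

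**Figure D4:**
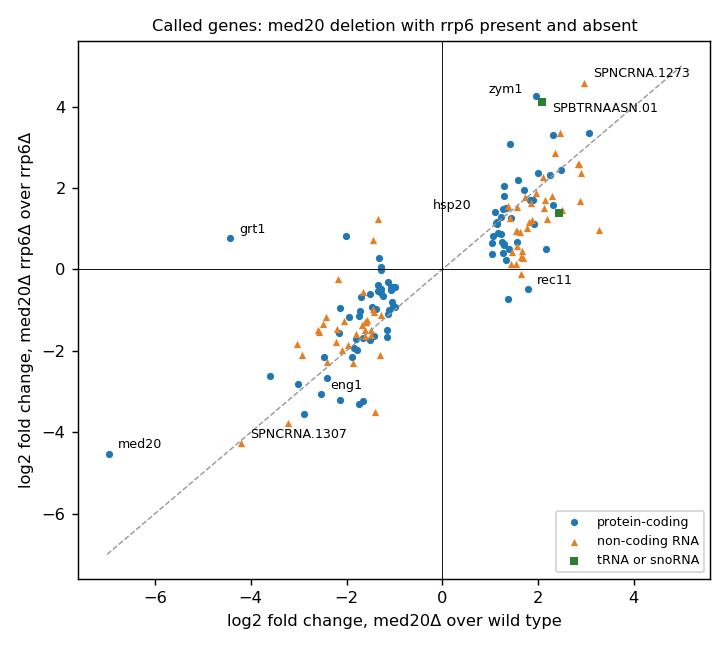
Each point is a gene called in med20Δ against wild type, with limma's log2 fold change of med20Δ over wild type on one axis and of med20Δ rrp6Δ over rrp6Δ on the other, and the dashed line marks equal values. Of the genes higher in med20Δ 71 of 74 lie above 0 on the second axis and of those lower 77 of 83 lie below it, and grt1 and rec11 lie away from the line.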

How the data were processed

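The authors deposited, per the file headers, a table for each mutant against wild type, holding the mean normalised signal of each group, its fold change as a ratio, the log2 fold change, and p-values before and after adjustment. Bowtie 0.12.7 and DESeq (no version given) are named in the submitters' processing notes. The sources used here do not give the genome build, annotation, counting program or strand setting. Genes were called at a deposited adjusted p under 0.05.

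A deposited mean is a sum of 3 whole counts, each times a fixed step, so counts per library were recovered from its 15 significant digits (97.5% of med20Δ and 98.3% of wild-type means, every mean under 10000). Wild-type counts matched across the 3 tables for 6517 of 6517 genes, and simulated means gave 0 wrong splits. The lowest count recovered was 1, and the sources do not say whether 1 was added, so values at the floor are 3 counts over a group. Libraries are numbered by their step and do not follow the letters of the labels. Because the files held means and not counts, limma 3.58.1 (R 4.3.3, mean-variance trend, Benjamini-Hochberg adjustment) was run on log2(count divided by size factor + 1) for genes with a mean of at least 10, and its fold changes understate low genes. Tested on simulated data for this contrast (5882 genes), it called 100% of genes raised 4-fold, 70.0% raised 2-fold and 10 of 5684 unchanged genes. Of genes lowered 4-fold it called 97.9%, and of those lowered 2-fold 64%. The simulated libraries did not hold the difference between library 1 and the others of a strain, so these rates may not apply to the real libraries.

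Gene positions came from RefSeq ASM294v3, where 6769 of 6888 identifiers matched. The deposited tables hold no coordinates. List names with no match (such as mat1-Pc and mat1-Pm) are not analysed here.

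Genes and lists were chosen with earlier results of these data known. Named in the text are med20 and the label loci with their neighbours, the coding genes (12 per direction) and non-coding RNAs (8 per direction) that changed most among called genes with a mean of at least 50, called members of lists, called genes of other RNA types and called neighbours, with any exception stated. The lists cover cell separation, stress, chaperones, flocculation, phosphate, thiamine, iron and copper, hexose transport, carbon, nitrogen, mating, Mmi1 targets, Mediator, RNA polymerase III, the exosome, pyrimidine and leucine synthesis, histones, S phase and mitosis. Of thiamine, hexose, nitrogen, histone, S phase, mitosis and pheromone genes, ght7 and put4 were lower and isp6 higher, and no other member was called in the deposited table.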

Additional observations from a re-analysis of the deposited data

Results flagged for a closer look

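Among genes called in med20Δ, the effect of deleting med20 differed between cells with and without rrp6 for 3 genes, by limma's test of the difference itself over 12 libraries (adjusted p under 0.05 over 6064 genes). Of the strains compared, rrp6Δ and wild type also differ in marker alleles, and their part in these differences was not tested.

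For grt1 the effect with rrp6 deleted minus the effect with rrp6 present was 5.20 on the log2 scale (standard error 0.70, adjusted p = 0.00551). It had 1.79, 2.12 and 4.28 in med20Δ, against 101, 104 and 37.4 in wild type. With rrp6 deleted it had 9.23, 7.85 and 9.77 in the double mutant, against 4.93, 7.61 and 2.84 in rrp6Δ, on a scale fitted over 12 libraries, so it was low in both of these strains.

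For rec11 the difference was -2.27 on the log2 scale (standard error 0.41, adjusted p = 0.0367). It had 33.05, 42.3 and 47.1 in med20Δ, against 13.3, 9.59 and 11.01 in wild type. With rrp6 deleted it had 139, 198 and 279.8 in the double mutant, against 303, 244 and 288 in rrp6Δ, and limma's log2 fold change there was -0.49 (adjusted p = 0.32).

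For med20 itself the difference was 2.43 on the log2 scale (standard error 0.42, adjusted p = 0.0306). It had 5.36, 2.12 and 5.35 in med20Δ, against 604, 583 and 626 in wild type. With rrp6 deleted it had 29.6, 20.1 and 24.9 in the double mutant, against 656, 544 and 571 in rrp6Δ, on the same 12-library scale.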

How the results depend on the processing

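None of the 160 deposited calls that limma tested reversed direction under any limma alternative run. For none of these genes did the strains overlap, so leaving out a library could not have reversed a direction. The kept direction is therefore no separate support for these 160 calls. Limma called 130 of them in its main form, 99 to 141 under other filters, pseudocounts, scalings and models except without a filter on low values (60), and 147 and 160 under the choices added after seeing the data. Of the 160, 26 genes were called without each library in turn, among them med20, grt1, SPBPB7E8.01, eng1, adg1, agn1, pfl3, pfl7, urg1, pbi2 and tsp0, and 32 in none of these fits. At a deposited adjusted p under 0.01 the calls were 39 higher and 46 lower. Limma called 29 higher and 36 lower without a filter, 136 higher and 122 lower with all 4 strains in 1 model, 282 higher and 258 lower without the library of each strain low in 5.8S rRNA, and 408 and 458 with a term for those libraries. Leaving out 1 library each gave 10 to 109 higher and 19 to 103 lower. With the term, or without those libraries, calls were 281 or 205 higher and 336 or 183 lower among coding genes, 100 or 56 higher and 121 or 74 lower among non-coding RNAs, 67 or 40 higher and 67 or 40 lower among antisense RNAs, and 17 or 10 higher and 40 or 29 lower among intergenic RNAs. Transporters called lower numbered 6 in limma, 36 with the term and 19 without those libraries (11 were higher with the term), and core stress genes called higher 12 and 11. The causes of these shifts were not tested. No paired analysis was possible because recovered libraries carry no replicate letter of the labels. Low counts limit the non-coding RNAs, since 30 of the 163 called genes had a mean under 50.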

Other observations

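Genes for the proteasome, which degrades proteins, mostly had positive changes in med20Δ. Of 46 genes with proteasome in the product, 38 had a positive deposited log2 fold change, where 2375 of all 5118 coding genes did. The median over the 46 was 0.28. Of them 2 were called higher, where 0.80% of coding genes were, and none lower. The subunit gene pre4 had 3677, 4139.6 and 3555 in med20Δ, against 1509, 2001 and 2097 in wild type, and fub1, for a predicted proteasome inhibitor, had 204, 148 and 145 in med20Δ, against 64.5, 55.6 and 82.6 in wild type. This group was picked after its values were seen.

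Genes of DNA replication under the MBF factor leaned the other way. Of 15, 13 had a negative deposited log2 fold change, where 2743 of all 5118 coding genes did, and the median over the 15 was -0.41. None was called in the deposited table or by limma (2 had an unadjusted p under 0.05). In the limma fit with a term for the libraries low in 5.8S rRNA 2 were lower (13.3%, where 7.78% of all genes were) and none higher. In that limma fit the ribonucleotide reductase gene cdc22 changed by -0.68 ± 0.17 (standard error, adjusted p = 0.00823) and the kinase gene mik1 by -0.78 ± 0.19 (standard error, adjusted p = 0.00699). Among oxidoreductases and dehydrogenases, 28 of 164 genes tested were higher (17.1%) and 15 lower (9.15%) in the same fit, where 6.93% and 7.78% of all genes were. The deposited table called 2 of 177 higher and 2 lower (1.13% each), and limma without the term 3 higher and 2 lower.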
